A study of Mus musculus with 12 samples.

Results

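Smooth muscle cells and pericytes, together called mural cells, wrap the vessels of the heart, and 10 genes that mark them were followed through total RNA (Input) and ribosome-bound RNA (IP) of WT and Rpl3l-/- mouse hearts. The genes were taken by name, with earlier results of these data known. Acta2, Myh11, Tagln, Cnn1 and Myl9 belong to the contractile apparatus of smooth muscle, and Rgs5, Pdgfrb, Notch3, Kcnj8 and Abcc9 are characteristic of pericytes and of the mural lineage in general. They are 10 of the 55401 genes listed in the deposited count files, and each had counts. The hearts came from adult mice, either WT or carrying the Rpl3l-/- deletion (KO below), with 3 libraries for each of the 4 groups (WT Input, KO Input, WT IP, KO IP) and 12 libraries in all. The labels describe them as biological triplicates and give neither strain, sex nor an exact age.

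Rpl3l encodes a striated muscle paralog of the large-subunit ribosomal protein Rpl3. For IP, hearts were exposed to cycloheximide, which stalls ribosomes on mRNA, ribosomes were captured with an antibody against an HA tag, and the RNA was cleaned on columns. Input RNA came from heart homogenates by TRIzol, so fraction and RNA purification change together and cannot be told apart. The sources used here name neither the tagged protein nor the cells that carry it, and they do not say if fractions of the same heart were compared. Both kinds of RNA were selected for poly(A) and sequenced as long cDNA reads on a nanopore device. In these bulk samples, fewer cells of a type and less RNA per cell cannot be told apart.

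Mural cells contract or relax to set vessel tone. Smooth muscle actin (Acta2), smooth muscle myosin heavy chain (Myh11) and the myosin regulatory light chain Myl9 form the contractile machinery, while transgelin (Tagln) and calponin (Cnn1) bind actin and accompany the contractile state. Many of these genes are controlled by serum response factor (Srf) and its coactivator myocardin (Myocd), acting at a promoter element named the CArG box. Pericytes are recruited to capillaries by PDGF-B from endothelium acting on the receptor Pdgfrb, and Jagged1 on endothelium signals to Notch3 on mural cells. Kcnj8 (Kir6.1) and Abcc9 (SUR2) are the pore and the regulatory subunit of the vascular ATP-sensitive potassium (KATP) channel. The SUR2 subunit also occurs in the KATP channel of cardiomyocytes, together with Kcnj11.

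Library totals ran from 169359 to 710868 counts, and each IP library was deeper than each Input library (443525 to 710868 against 169359 to 443177). A floor of 3 counts stands for 4.22 to 17.7 CPM (counts scaled to a common library size), depending on the library. The floor is taken from the plain library totals. The 10 genes together took 207 to 914 counts per library, 0.0808% to 0.129% of all counts. The deleted gene was checked first. Rpl3l stood at 270 ± 43.9 CPM (SD, n = 3) in WT Input and 48.9 ± 20.9 CPM in KO Input, and at 272 ± 2.75 CPM in WT IP and 4.42 ± 3.37 CPM in KO IP, so the libraries followed their labels. Of 12 cardiomyocyte markers 11 had counts, with a summed level of 68055 to 80184 CPM over the 12 libraries, and Actc1 (cardiac actin) was at 0 in all of them. CPM values other than the floor are scaled by trimmed mean of M values (TMM), so they differ somewhat in scale from it.

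Acta2 belongs to a family of closely related actins, so its reads can be confused with those of its relatives. The last 60 coding bases, stop codon included, are shown for the 4 muscle actins to show how alike they are, from GENCODE M21 transcripts (GRCm38), with capitals at bases that differ from Acta2.
Acta2: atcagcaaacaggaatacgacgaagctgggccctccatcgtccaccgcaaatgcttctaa
Actg2: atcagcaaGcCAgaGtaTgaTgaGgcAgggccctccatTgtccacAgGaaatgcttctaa
Actc1: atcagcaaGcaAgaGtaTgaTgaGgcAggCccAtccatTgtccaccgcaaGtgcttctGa
Acta1: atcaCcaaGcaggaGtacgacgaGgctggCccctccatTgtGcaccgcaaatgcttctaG
Within these 60 bases Actg2 differs from Acta2 at 11, Actc1 at 12 and Acta1 at 8. Over the whole coding sequence the identity to Acta2 was 84.3% for Actg2, 82.8% for Actc1 and 85.5% for Acta1. The gene named for cardiac actin held no count in any library, whereas Actg2, the enteric smooth muscle actin, held 12846 counts over the 12 libraries. Acta1, the skeletal muscle actin, held 8288 and Acta2 held 798. The sources used here do not give how reads of close relatives were assigned, so the Acta2 level is uncertain to that extent, and Actg2 is not read as a smooth muscle gene. Myl9 has close relatives too, Myl12b (86.4% coding identity, 432 counts) and Myl12a (85.8%, 4837 counts), against 191 counts for Myl9 itself. For Tagln the uncertainty is of another kind: 67.9% of its exonic bases also lie in exons of genes on the opposite strand, Pcsk7 (18 counts in all) and Gm48529 (0 counts), and the use of strand in counting is not stated there.

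CArG boxes were looked for in the 250 bases before the RefSeq start (GRCm38.p6), because the contractile genes are textbook targets of Srf. RefSeq promoters matched 7 members, and Myh11, Tagln and Pdgfrb had no entry. An exact box lay before Myl9, and boxes with at most 1 base off lay before Myl9 and Acta2, counting both strands. Here and below, the base off could lie only in the A/T core between CC and GG, and boxes altered in CC or GG were not searched. Exact boxes occur in 482 of 32851 promoter windows of that length (1.47%) and boxes with at most 1 base off in 2823 (8.59%). Each is printed with 10 bases on either side and the box in capitals, and the matches are descriptions, not shown binding sites.
Myl9, chr2:156775293-156775322, plus strand, exact: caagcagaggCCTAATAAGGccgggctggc
Myl9, chr2:156775355-156775384, plus strand, 1 base off: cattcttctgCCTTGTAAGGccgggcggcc
Acta2, chr19:34255438-34255467, minus strand, 1 base off: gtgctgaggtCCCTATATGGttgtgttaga
Acta2, chr19:34255388-34255417, minus strand, 1 base off: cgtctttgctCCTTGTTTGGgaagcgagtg
Acta2 and Myl9, the 2 members with such boxes, differed in how they divided between the fractions, as given below.

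Among the contractile genes, Acta2 (ENSMUSG00000035783.9, chr19:34241090-34255590) had the most counts and a similar level in all groups. It was measured at 182, 101 and 144 CPM in WT Input, 160, 135 and 153 in KO Input, 79.9, 147 and 192 in WT IP, and 170, 152 and 165 in KO IP. The 4 groups overlapped, and the WT IP libraries spanned the widest range.

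Myl9 (ENSMUSG00000067818.6, chr2:156775420-156781658), the light chain whose phosphorylation triggers smooth muscle contraction, was measured at 34.9, 44.4 and 87.3 CPM in WT Input and 8.88, 25.7 and 17.6 in WT IP. In KO hearts it stood at 64.7, 104 and 136 CPM in Input and 14, 22.2 and 18.3 in IP. Every IP library lay below every Input library of its genotype. Tagln (ENSMUSG00000032085.5, chr9:45929619-45936058) showed the same order, with 29.9, 37.0 and 80.6 CPM in WT Input, 16.3, 18.8 and 22.9 in WT IP, 26.7, 38.5 and 34.1 in KO Input, and 25.7, 3.92 and 24.9 in KO IP. WT Input replicate 3 was the highest Input library of WT for both genes.

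Myh11 (ENSMUSG00000018830.10, chr16:14194535-14291372), the most specific of the smooth muscle genes, had only 68 counts over the 12 libraries. They were 13, 9 and 10 in WT Input, 2, 6 and 3 in KO Input, 3, 4 and 1 in WT IP, and 6, 7 and 4 in KO IP, and its WT IP libraries all lay below its WT Input libraries in CPM. Cnn1 (ENSMUSG00000001349.5, chr9:22099216-22109630) had 22 counts in all. There were 1, 0 and 4 in WT Input, 1, 5 and 3 in KO Input, 0, 1 and 1 in WT IP, and 1, 0 and 5 in KO IP, which is near the limit of detection. No library at 0 can be read as lacking the transcript, since 3 counts set the floor.

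Rgs5 (ENSMUSG00000026678.10, chr1:169655501-169695813), which dampens G protein signaling and is the classical pericyte marker, dominated the group with 41.3% to 59.9% of the 10 genes' counts in each library. It was measured at 414, 414 and 440 CPM in WT Input, 518, 416 and 500 in KO Input, 613, 512 and 607 in WT IP, and 436, 712 and 520 in KO IP. All WT IP libraries lay above all WT Input libraries, whereas the KO fractions overlapped.

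The KATP channel pair sits side by side on chromosome 6, 16247 bases apart. Abcc9 (ENSMUSG00000030249.15, chr6:142587862-142702315) was measured at 142, 145 and 185 CPM in WT Input, 107, 116 and 170 in KO Input, 210, 158 and 192 in WT IP, and 156, 196 and 155 in KO IP. Kcnj8 (ENSMUSG00000030247.9, chr6:142564837-142571614) stood at 54.8, 66.6 and 50.4 CPM in WT Input, 41.9, 34.7 and 73.9 in KO Input, 45.9, 44.5 and 49.3 in WT IP, and 25.7, 27.5 and 36.6 in KO IP. The regulatory subunit leaned to the IP side and the pore to the Input side, although Abcc9 overlapped between fractions in both genotypes and Kcnj8 did in KO.

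Pdgfrb (ENSMUSG00000024620.11, chr18:61045150-61085061) was measured at 27.4, 39.5 and 30.2 CPM in WT Input, 53.3, 46.2 and 73.9 in KO Input, 40.0, 29.1 and 45.8 in WT IP, and 46.7, 65.4 and 29.9 in KO IP. All KO Input libraries lay above all WT Input libraries, while the fractions overlapped within each genotype and the genotypes overlapped in IP. Notch3 (ENSMUSG00000038146.8, chr17:32120820-32166852), the mural Notch receptor, had 34 counts, of which 31 were in IP. They were 1, 1 and 0 in WT Input, 1, 0 and 0 in KO Input, 3, 2 and 6 in WT IP, and 8, 6 and 6 in KO IP.

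**Figure D1:**
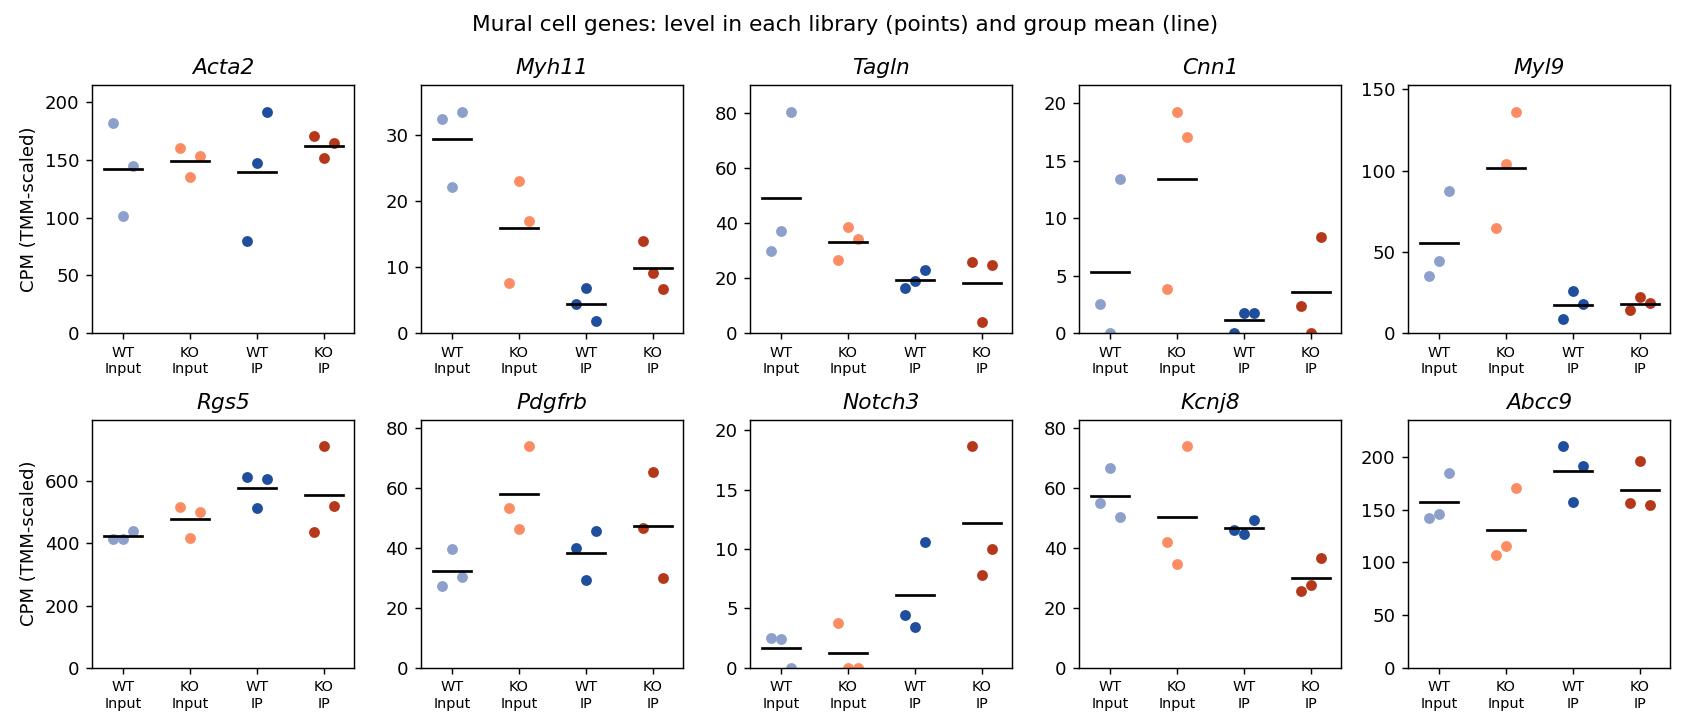
Level of each of the 10 mural cell genes in CPM (vertical axes, linear, each starting at 0 with its own scale) in the 4 groups on the horizontal axes, with 1 point per library and a line at the group mean. Myl9 and Tagln points of IP lie below those of Input in each genotype, Notch3 points lie above, and Acta2 points overlap in all groups.

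Levels of different genes were compared only per kilobase of the longest transcript, and whether counts of long cDNA reads grow with transcript length in that way was not tested. In WT Input the mean was 103 CPM per kb for Rgs5, 70.0 for Acta2, 49.2 for Myl9, 30.8 for Tagln, 22.5 for Kcnj8, 21 for Abcc9, 5.97 for Pdgfrb, 4.49 for Myh11, 2.23 for Cnn1 and 0.206 for Notch3. Neighbours in this order overlapped between libraries except Rgs5 with Acta2 (lowest 101 against highest 89.4) and Abcc9 with Pdgfrb (lowest 18.9 against highest 7.28). In WT IP the means were 141 CPM per kb for Rgs5, 68.7 for Acta2, 24.9 for Abcc9, 18.3 for Kcnj8, 15.4 for Myl9, 12.1 for Tagln and 7.06 for Pdgfrb. In WT, Myl9 and Tagln thus ranked above both KATP channel genes in Input and below them in IP, a difference in order that was not tested. In KO IP the order was another, with 22.5 CPM per kb for Abcc9, 16.1 for Myl9, 11.7 for Kcnj8 and 11.4 for Tagln.

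The comparison of IP with Input asks which mural transcripts were over- or under-represented in the captured ribosome fraction. Myl9 was the member that fell in both genotypes, by 1.64 on the log2 scale in WT (3.11-fold lower, SE 0.41, adjusted p = 0.0084) and by 2.39 in KO (5.24-fold lower, SE 0.40, adjusted p = 0.000148), in edgeR's quasi-likelihood test with Benjamini-Hochberg adjustment over 6596 genes. Of the 10 members, 7 passed the count filter for this test and Myh11, Cnn1 and Notch3 did not. Myl9 passed mainly through Input, with 14, 18 and 26 counts in WT and 17, 27 and 24 in KO. Its deeper IP libraries held 6, 15 and 10 counts in WT and 6, 17 and 11 in KO. The calls of Myl9 are thus given as descriptions and are no support. In each genotype 1 of the 7 was called, which is lower in IP, against 14% of all tested genes called in WT (5.37% higher, 8.67% lower) and 16.4% in KO (6.64% higher, 9.78% lower). For the 7 tested members the count was near the background. Myh11 entered the test in 12 alternative settings, most of them with 1 library left out, and was called lower in WT IP in all 12 (log2 -3.08 to -2.32), but it passed the filter mainly through its WT Input counts, so these calls are no support. The median log2 ratio of the 7 was -0.04 in WT and -0.23 in KO, beside 0.02 and 0.01 over all tested genes. Leaving out WT IP replicate 1 (log2 -1.28, adjusted p = 0.0669) or WT Input replicate 3 (-1.21, adjusted p = 0.0900) ended the WT call of Myl9.

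Tagln had a log2 ratio of -1.29 in WT (SE 0.47, adjusted p = 0.0677) and -0.95 in KO (SE 0.56, adjusted p = 0.262), neither past the threshold of 0.05. The WT value passed with only the compared libraries (adjusted p = 0.0248) or without KO IP replicate 2 (0.0304). Its WT value rested in part on WT Input replicate 3, without which it was -0.80. In KO its value rested on KO IP replicate 2, the library with 3 counts, without which it was -0.37. Acta2 showed no measurable shift, with -0.04 in WT (95% interval -0.55 to 0.48) and 0.12 in KO (-0.43 to 0.66).

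For Rgs5 the log2 ratio was 0.45 in WT (SE 0.17, adjusted p = 0.0799) and 0.23 in KO (SE 0.18, adjusted p = 0.41). The WT value passed when only the compared libraries were fitted (adjusted p = 0.0164), with no count filter (0.0479), and without KO IP replicate 1 (0.0475) or KO IP replicate 2 (0.0431). Abcc9 gave 0.26 in WT (95% interval -0.15 to 0.66) and 0.41 in KO (-0.04 to 0.86). Kcnj8 gave -0.31 in WT (-0.90 to 0.29) and -0.67 in KO (-1.38 to 0.04). Left-out libraries moved these uncalled values, to 0.022 for Rgs5 in KO without KO IP replicate 2, and to -0.34 for Kcnj8 in KO without KO Input replicate 3 and -0.18 in WT without WT Input replicate 2. The 2 channel subunits thus had ratios of opposite sign in both genotypes, each within the error of no change. Pdgfrb gave 0.23 in WT (-0.49 to 0.96) and -0.23 in KO (-0.94 to 0.47).

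**Figure D2:**
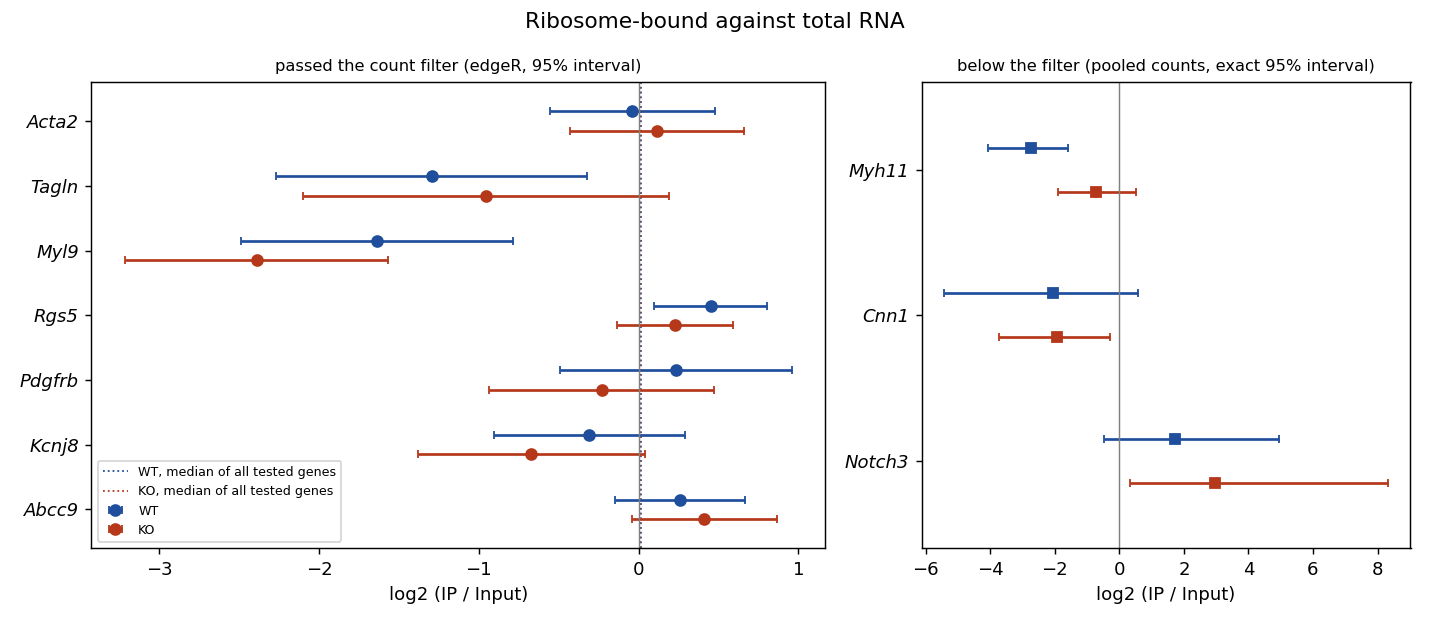
Log2 ratio of IP to Input for WT and KO, with 95% intervals, for the 7 genes in the edgeR test (left, dotted lines at the median of all tested genes) and from pooled counts for the 3 genes under the filter (right, wider scale, intervals for counting error only). The intervals of Myl9 lie wholly below 0 in both genotypes, and those of Acta2 and Pdgfrb span 0.

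The 3 genes under the filter were described by pooled counts, with exact (Clopper-Pearson based) 95% intervals that cover counting error only. Ratios of pooled counts, here and below, are scaled by library sizes adjusted with TMM. Notch3 had 31 counts in IP and 3 in Input, a ratio of 5.14 (1.60 to 26.3). Its IP libraries lay above its Input libraries in both genotypes. Myh11 had 25 counts in IP and 43 in Input, a ratio of 0.289 (0.169 to 0.484). Its ratio was 0.151 (0.0602 to 0.335) in WT and 0.601 (0.266 to 1.42) in KO. Cnn1 had 8 counts in IP and 14 in Input, a ratio of 0.284 (0.103 to 0.726). Fitted in edgeR with no count filter, Myh11 gave -2.59 in WT (adjusted p = 0.00236) and -0.59 in KO (adjusted p = 0.79), and Notch3 gave 1.68 (adjusted p = 0.522) and 2.91 (adjusted p = 0.172). For Myh11 the WT and KO ratios differed by 2.01 in that fit with an adjusted p of 0.932 (0.0356 unadjusted), so they were not shown to differ over all genes tested.

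A 2-sided exact permutation test over the 12 libraries, with fraction labels exchanged within each genotype (400 arrangements, smallest possible p 0.005), was run on each member as well. The smallest p that it allows, 0.005, was reached by Myl9 and Tagln (lower in IP) and by Notch3 (higher in IP). Exact permutation p was 0.015 for Myh11 and Kcnj8, 0.025 for Rgs5, 0.065 for Abcc9, 0.085 for Cnn1, 0.765 for Acta2 and 0.775 for Pdgfrb. These are unadjusted values from 20 such tests, on genes chosen by name with earlier results of these data known. In WT the libraries of the 2 fractions did not overlap for 6 of the 10 members, 4 of them lower in IP (Myh11, Tagln, Myl9, Kcnj8) and 2 higher (Rgs5, Notch3), where 18.2% of all tested genes lay wholly lower and 16.4% wholly higher. In KO this held for 3 of the 10, 2 lower (Tagln, Myl9) and 1 higher (Notch3), with 15.6% and 15.2% of tested genes. These shares cover only genes that passed the count filter, which Myh11 and Notch3 did not, so the 2 sets are unlike. Each Input library of Notch3 held 0 or 1 counts, under the floor of 3.

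Summed over the contractile genes other than Acta2, a subset picked after the values were seen and so given without a test, the level was 99.7 to 215 CPM in the 6 Input libraries and 29.6 to 58.2 CPM in the 6 IP libraries. With Acta2 included the sums overlapped, at 205 to 359 CPM in Input and 109.5 to 236 CPM in IP. The 5 pericyte-type genes summed to 612 to 818 CPM in Input and 684 to 1009 CPM in IP, which also overlapped.

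Transcript length moved with the ratio over all genes. In WT the median log2 ratio was -0.49 for genes with transcripts of up to 1000 bases, -0.20 from 1000 to 2000 bases, and 0.23 above 6000 bases, and in KO the same classes gave -0.56, -0.21 and 0.36. Myl9 (1128 bases) and Tagln (1595 bases) are the shortest members, and Abcc9 (7499 bases) and Notch3 (8016 bases) the longest. Myh11 (6549 bases), under the count filter, had a pooled WT ratio of 0.151 from 8 counts in IP and 32 in Input. The part of length in the ratios of single members was not tested. With the length trend of each library removed, Myl9 gave -1.28 in WT (adjusted p = 0.0514) and -2.02 in KO (adjusted p = 0.00172), so its KO call held and its WT call ended.

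**Figure D3:**
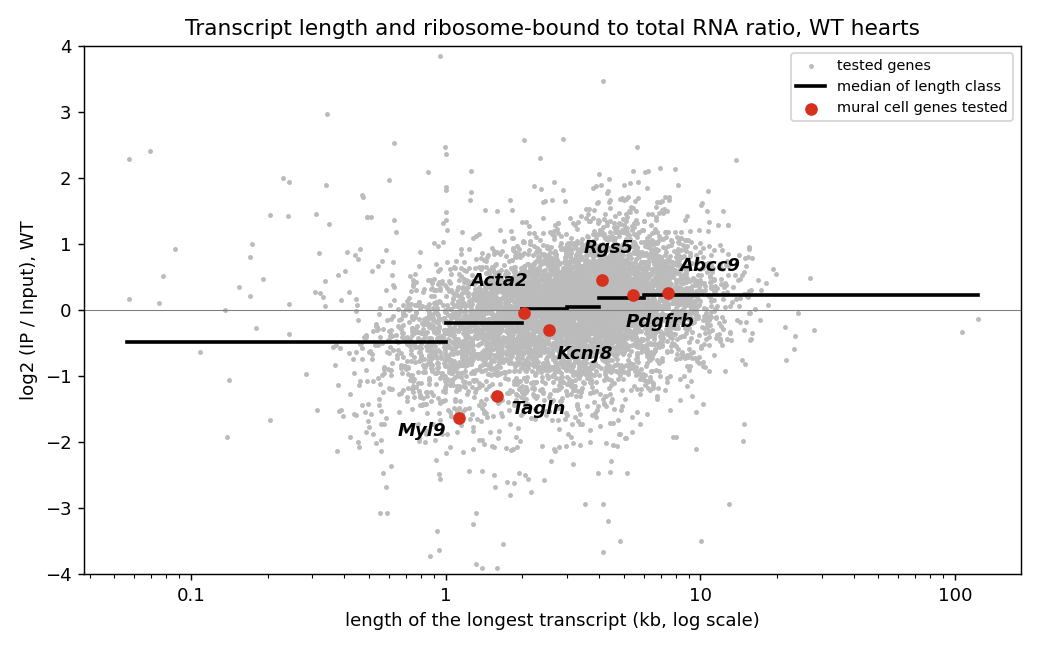
Log2 ratio of IP to Input in WT (vertical axis) against the length of the longest transcript in kb (horizontal axis, log scale) for 6573 tested genes in gray, with 18 more beyond the axis limits of -4 and 4, the 7 tested members in red, and bars at the median of each length class. Myl9 and Tagln lie below the medians of their classes, and Acta2, Pdgfrb and Abcc9 lie close to theirs.

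Markers of other cell types were summed beside these results. The 7 adipocyte markers, all with counts, summed to 133 to 699 CPM in Input and 16.3 to 54.6 CPM in IP, and their highest library was WT Input replicate 3, also the highest WT library for Tagln, Myl9 and Cnn1. The part of fat-associated tissue in the Myl9 and Tagln values was not tested. The 6 Schwann and mesothelial markers gave 32.1 to 108 CPM in Input and 5.92 to 72.3 CPM in IP. The 12 endothelial markers gave 1155 to 1438 CPM in Input and 1021 to 1232 CPM in IP, and the 10 macrophage markers 535 to 947 CPM in Input and 680 to 915 CPM in IP. Fibroblast markers, 11 of 12 with counts (Tcf21 at 0), gave 2833 to 3553 CPM in Input and 2777 to 4063 CPM in IP. The 6 erythroid markers varied most between libraries of 1 group, from 16154 to 202646 CPM over the 12.

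The wider smooth muscle program did not move in 1 direction. Of 18 further contractile genes 10 were tested, and in WT 2 rose and 1 fell, with a median of -0.42, and in KO 4 rose and 1 fell, with a median of 0.27. Of all tested genes 5.37% were called higher and 8.67% lower in WT, and 6.64% higher and 9.78% lower in KO. The 1 gene that fell in each genotype was thus near the background. Actg2, not read as a smooth muscle gene above, is among the 10 and among the 4 that rose in KO. Srf rose in IP in both genotypes, by 1.66 in WT (SE 0.32, adjusted p = 0.000763) and 1.20 in KO (SE 0.34, adjusted p = 0.0146, or 0.0894 without KO Input replicate 2). Ppp1r12b, a myosin phosphatase subunit that cardiomyocytes also express, rose by 1.43 in WT (adjusted p = 4.16e-05) and 1.18 in KO (adjusted p = 0.000662). Smtn (smoothelin) fell by 1.58 in WT (adjusted p = 8.81e-05). In KO, Myocd rose by 2.83 (SE 0.63, adjusted p = 0.00263), from 7, 2 and 0 counts in Input to 17, 73 and 82 in IP, although limma-voom gave adjusted p = 0.181. Without KO Input replicate 1 the rise was 4.27, and 2.41 without KO Input replicate 3. The difference between its KO and WT ratios, 3.14, had an adjusted p of 0.247. Also in KO, Pcp4l1, a small calmodulin-binding protein gene, fell by 1.08 (adjusted p = 0.000587) and Actg2 rose by 0.64 (adjusted p = 0.0228), a call that ended without KO IP or KO Input replicate 3, KO IP replicate 1 or KO Input replicate 2 (adjusted p up to 0.132). Srf and Myocd, the regulators of the contractile genes, thus had ratios opposite in sign to those of Myl9 and Tagln in KO, where Tagln was not called. In WT this was not seen for Myocd, with means of 48.3 CPM in Input and 40.1 CPM in IP and overlapping libraries. Many genes of this list are expressed in cardiomyocytes.

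Of 24 further pericyte genes 15 were tested and none was called in either genotype, with median log2 ratios of 0.15 in WT and 0.25 in KO, and with 0 and 2 at an unadjusted p under 0.05. Of all 6596 tested genes, 14% were called in WT and 16.4% in KO. At an unadjusted p under 0.05 there were 1835 of them in WT and 1936 in KO. Ednra, the endothelin receptor, was at 0 in all 12 libraries. Among 12 partners of the receptors and of the KATP channel, 8 were tested. The call there was Abcc8 (SUR1), which fell by 1.52 in WT (SE 0.44, adjusted p = 0.0221), a call that ended without WT IP replicate 1 or 3 or WT Input replicate 1 or 2 (adjusted p up to 0.103). Pdgfb, the ligand of Pdgfrb, stood at 23.9 ± 11.6 CPM (SD, n = 3) in WT Input and 30.4 ± 3.15 in WT IP, and Jag1, the ligand of Notch3, at 12.8 ± 5.06 and 17.7 ± 5.25. Neither ligand was called between fractions, nor was the receptor Pdgfrb, while Notch3 was under the filter and had the higher IP values given above. Among the 14 close paralogs of the members, 10 were tested. Myl12a, the relative of Myl9, fell by 0.59 in WT (adjusted p = 0.0368) and 0.91 in KO (adjusted p = 0.00184). Its WT call ended with library totals in place of TMM (0.143), with the length trend removed (0.0875), and without WT IP replicate 1 or 2 or any WT Input replicate (up to 0.163). In KO, Actg1 fell by 1.05 (adjusted p = 0.000662).

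The comparison of KO with WT asks whether mural transcripts changed when Rpl3l was lost. No member was called in Input or in IP, where 12 genes in Input (0.182% of those tested) and 6 in IP (0.091%) were called overall by edgeR. At an unadjusted p under 0.05, 2 members were found in Input and 1 in IP, beside 469 and 343 of all tested genes. DESeq2 and limma-voom called no member either. The median log2 difference of the 7 tested members was 0.07 in Input and -0.05 in IP, beside -0.01 and 0.00 for all genes.

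The difference of Pdgfrb in Input was 0.79 (SE 0.38, adjusted p = 0.693), with 3 of 3 KO libraries above all WT libraries. Its exact permutation p over both fractions was 0.04, unadjusted. In IP it was 0.32 (95% interval -0.31 to 0.96). Libraries lay wholly higher in KO Input for 6.17% of all tested genes. Myl9 differed by 0.88 in Input (SE 0.37, adjusted p = 0.645) with overlapping libraries, and by 0.13 in IP (-0.80 to 1.05). Kcnj8 was at -0.63 in IP (SE 0.30, adjusted p = 0.943), all KO IP libraries below all WT IP libraries as for 5.44% of tested genes, and at -0.26 in Input (-0.95 to 0.43). Its channel partner Abcc9 was at -0.14 in IP (-0.52 to 0.25) and -0.29 in Input (-0.76 to 0.18).

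For the abundant members the intervals were narrow enough to bound a change. The KO minus WT difference of Rgs5 lay between -0.39 and 0.29 in IP and between -0.20 and 0.55 in Input on the log2 scale. That of Acta2 lay between -0.26 and 0.71 in IP and between -0.50 and 0.64 in Input. A change of 1 on the log2 scale was outside these intervals. Tagln, with few counts, was bounded only to -1.24 to 0.87 in IP and -1.58 to 0.53 in Input. For Myh11 the pooled ratio of KO to WT was 0.544 (0.247 to 1.11) in Input and 2.16 (0.885 to 5.79) in IP, for Cnn1 2.85 (0.857 to 10.8) and 3.05 (0.546 to 30.9), and for Notch3 0.791 (0.0134 to 15.2) and 1.85 (0.846 to 4.28). At these counts no difference was detectable. None of the further contractile, pericyte, partner or paralog genes was called between the genotypes in either fraction.

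**Figure D4:**
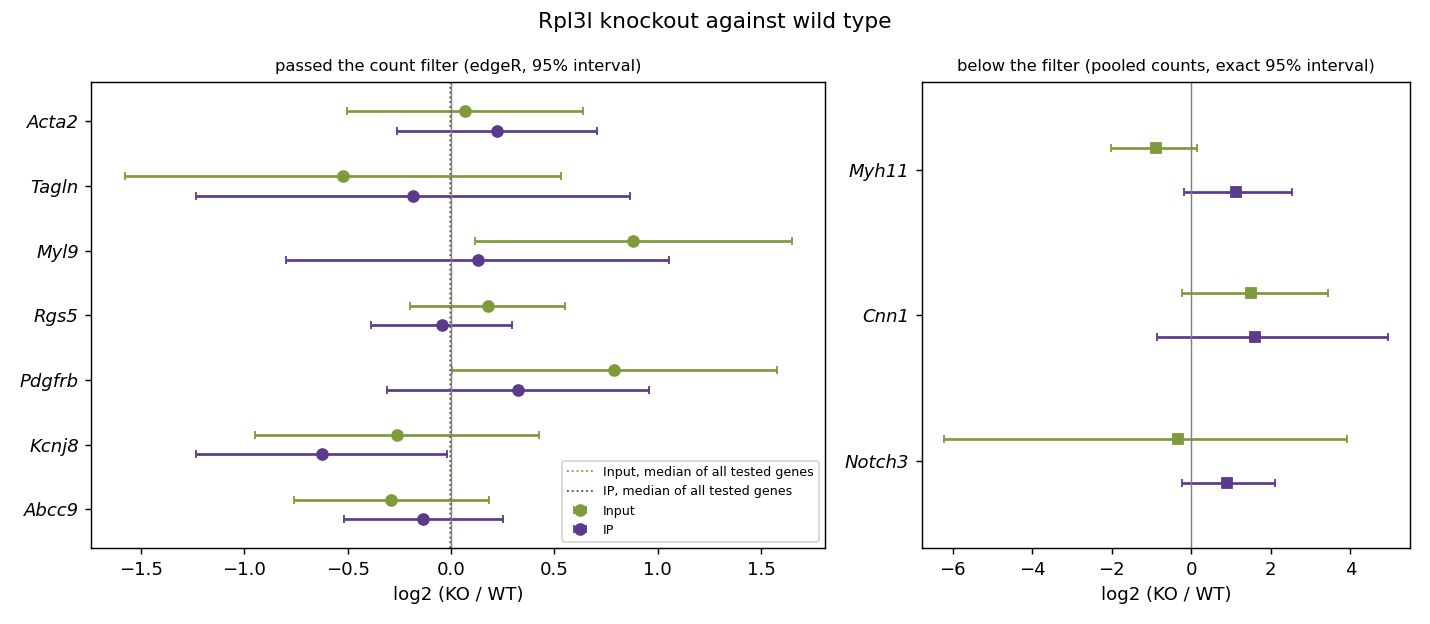
Log2 ratio of KO to WT in Input and in IP, with 95% intervals, for the 7 genes in the edgeR test (left, dotted lines at the median of all tested genes) and from pooled counts for the 3 genes under the filter (right, wider scale, counting error only). Intervals of Rgs5 and Acta2 lie within 0.71 of 0 on either side, and those of Cnn1 and Notch3 are the widest.

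Whether the IP to Input ratio itself differed between genotypes was tested as an interaction. Of the 7 tested members none was called and none had an unadjusted p under 0.05, where 6 genes (0.091%) were called and 463 had an unadjusted p under 0.05 overall. The log2 ratio in KO less that in WT was -0.75 for Myl9 (95% interval -1.97 to 0.46), -0.22 for Rgs5 (-0.73 to 0.28), 0.15 for Acta2 (-0.59 to 0.90) and 0.34 for Tagln (-1.17 to 1.85). The larger fall of Myl9 in KO is thus within the error of this difference.

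Within groups the 7 tested members did not vary as 1 block. Over their 21 pairs, correlations of deviations from the group means in the 12 libraries ran from -0.68 (Tagln with Rgs5) to 0.63 (Pdgfrb with Abcc9), with a median of 0.16 and 14 positive, given as a description since the libraries share their depth. The genes whose log2 CPM followed the mean profile of these members most closely over the 12 libraries, among 6020 other tested genes with a mean of at least 20 CPM, were Sult1a1 (Pearson r 0.86), Kdr (0.85), Ldb3 (0.84), Ipo8 (0.82), Stt3a (0.82) and Ccny (0.81). Kdr, the endothelial VEGF receptor, and Ldb3, a sarcomere protein gene, belong to other cell types. These r values are the highest of 6020 over 12 libraries and were not tested, so no link to the members is read from them.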

How the data were processed

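Members and gene lists were chosen with earlier results of these data known. The authors deposited whole-number counts per gene for each library, per the file headers and values. Per the submitters' processing notes, minimap2 2.14 and DESeq2 1.34.0 were used with build GRCm38. The sources used here give no counting tool, counting rule or annotation. IDs were matched without version to GENCODE M21 (55141 of 55401), which gave names, coordinates and transcript lengths.

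The test was the quasi-likelihood test of edgeR 4.0.16, run with limma 3.58.1 under R 4.3.3. It took the 6596 genes left by filterByExpr, with a count minimum of 10 and a total of at least 15. The 12 libraries entered 1 model with TMM factors and a mean for each group, with a common dispersion of 0.0333. The 5 contrasts were KO against WT in Input and in IP, IP against Input in WT and in KO, and the interaction. P values were adjusted by Benjamini-Hochberg over all tested genes, with a threshold of 0.05, and single members also had exact permutation tests (scipy 1.17.1). The fit was tested on simulated counts. Alternatives were other normalizations, filters and tests (DESeq2 1.42.0, limma-voom), fewer libraries, a replicate block, and removal of the trend with transcript length (loess, span 0.5).

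The genes named are the 10 members, Rpl3l, up to 6 called genes per list and comparison, and the 6 genes most like the members. Pdgfb, Jag1, Ednra and the actins with no call were added after their values were seen. With 3 libraries against 3, an exact test has a smallest p of 0.1, so calls rest on the model. Intervals of pooled counts and floors cover counting error only.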

Additional observations from a re-analysis of the deposited data

Results flagged for a closer look

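For the deleted gene Rpl3l the log2 ratio of IP to Input differed between genotypes by -3.38 (KO less WT, SE 0.52, edgeR adjusted p = 0.00538), since its remaining counts were lower in IP (8 over 3 KO libraries) than in Input (34), and limma-voom gave an adjusted p of 0.376 and the fit without KO Input replicate 1 an adjusted p of 0.0503. No mural cell gene differed between genotypes in this way.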

How the results depend on the processing

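Of 707 values of the 7 tested members under the alternatives, 677 kept direction and side of the threshold, 3 lost a call, 6 gained one and 21 changed sign, all 21 in values that were not called. For IP against Input in WT, called members were 1 in the reported fit, 3 with no count filter, 0 with the stricter filter (30 counts in 3 libraries, which Myl9 does not reach), 4 with only the compared libraries, 0 with the length trend removed, and 0 to 4 with a library left out (0 without WT Input replicate 3, 3 without KO IP replicate 1, 4 without KO IP replicate 2, and 2 where any KO Input library, WT Input replicate 2, KO IP replicate 3 or either of WT IP replicates 2 and 3 was dropped, since Myh11 then entered the test and was called). In KO the stricter filter gave 0 called members in place of 1. Called genes for KO against WT in Input were 12, with 77 unfiltered, 5 with the stricter filter, and 4 to 17 with a library left out (4 without WT Input replicate 1, 5 without KO Input replicate 3). In IP they were 6, with 55 unfiltered, 10 with DESeq2, and 2 to 8 with a library left out (2 without WT IP replicate 1, 3 without WT IP replicate 2, KO IP replicate 3 or WT Input replicate 1). For IP against Input in WT, 926 genes became 601 to 1019, the fewest without WT Input replicate 1. For the interaction, 6 became 37 unfiltered, 1 with limma-voom, and 1 to 8 with a library left out (1 without WT Input replicate 1, 3 without WT IP replicate 3). Unfiltered fits tested 16598 genes and the stricter filter 3272, and the cause of the other moves was not tested. Rgs5 for KO against WT in IP was 0.067 with library totals. Acta2 for IP against Input in WT was 0.052 with library totals, 0.028 unfiltered and 0.054 with the length trend removed. The Tagln interaction, 0.34 as reported, was -0.42 with limma-voom. With a library left out, Acta2 ranged from -0.33 to 0.27 (IP against Input in WT), -0.074 to 0.52 (KO against WT in IP), -0.15 to 0.29 (Input) and -0.14 to 0.45 (interaction). For KO against WT in IP, Myl9 ranged from -0.22 to 0.51, Pdgfrb from -0.032 to 0.58, Rgs5 from -0.27 to 0.094 and Tagln from -0.59 to 0.39. Pdgfrb for IP against Input in KO ranged from -0.57 to 0.033 and the Tagln interaction from -0.15 to 0.91. Depth limits Myh11, Cnn1 and Notch3 most.

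Deviations of same-numbered libraries correlated between -0.128 and 0.0554 over 18 pairs, so no pairing by replicate number was seen. These values cannot decide if same-numbered Input and IP libraries share a heart. The pairs include WT with KO libraries, which cannot share one, and counting error in shallow libraries lowers such correlations. With a replicate block, called genes were 15 for KO against WT in Input, 8 in IP, 858 and 1009 for IP against Input in WT and KO, and 4 for the interaction, and called members stayed at 1 in each IP against Input comparison and 0 in the others.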
